A study of Mus musculus with 10 samples.

Results

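Extracellular nucleotides and adenosine act on macrophages through a small set of surface receptors and enzymes, and 10 genes of this system were compared between macrophages of lung metastases and macrophages of normal lung. They were listed by name, with earlier results of these data known, and no value entered the rule. The list holds the ATP-gated channels P2rx4 and P2rx7, the nucleotide receptors P2ry2, P2ry6, P2ry12 and P2ry14, the adenosine receptors Adora2a and Adora2b, and the ectonucleotidases Entpd1 and Nt5e. All 10 were among the 24538 genes of the count files and among the 11571 genes tested. A wider list of 43 genes of the same system was counted beside them.

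Metastasis-associated macrophages (MAMs) were sorted from dissected lung metastases of wild-type female C57BL6/J mice. The metastases grew from E0771-LG cells, a mouse mammary tumour line, injected into the tail vein at 6 to 8 weeks of age. Resident alveolar macrophages (RAMs) were sorted from normal lungs of wild-type C57BL6/J mice, and animals of both groups were 8 to 10 weeks old at collection. Each group had 5 libraries, and each MAM sample pooled metastases of 2 to 4 mice. Both populations passed a gate for CD45, F4/80, MRC1, absent LY6C and high forward scatter. MAMs were the cells that carried CD11B and lacked CD11C, and RAMs carried CD11C and lacked CD11B. The authors describe MAMs as recruited to metastases and as having monocytic progenitors, and RAMs as resident in the lung. Group, gate, tissue state and cell origin therefore changed together and cannot be told apart. Words such as rose and fell compare the populations and do not describe a change within the same cells. The transcription inhibitors alpha-amanitin and actinomycin D were present in both groups while the tissue was digested. The labels name the libraries of a group as separate samples and say no more of how independent they were, so p-values measure only the spread between these libraries.

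ATP leaves stressed or dying cells and opens P2X channels, while P2Y receptors couple ATP, ADP, UTP, UDP or UDP-glucose to G proteins. The ectonucleotidase CD39, encoded by Entpd1, removes phosphates from ATP and ADP to give AMP, and CD73, encoded by Nt5e, turns AMP into adenosine. Adenosine raises cyclic AMP in macrophages through the receptors of Adora2a and Adora2b and is known for dampening inflammatory output in tumours, whereas P2rx7 is known for triggering the release of interleukin-1 beta.

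Several of these genes lie side by side in the genome (GRCm38, GENCODE M21 annotation). On chromosome 5, P2rx7 (chr5:122643911-122691432) and P2rx4 (chr5:122707544-122729738) follow each other on the plus strand, 16.1 kb apart. On chromosome 3, P2ry14 (chr3:59113855-59153618), the related gene P2ry13 (chr3:59207892-59210882) and P2ry12 (chr3:59216272-59262871) share the minus strand, with 54.3 kb between P2ry14 and P2ry13 and 5.4 kb between P2ry13 and P2ry12. P2ry6 (chr7:100937630-100974649) and P2ry2 (chr7:100996568-101012866) are also minus-strand neighbours, 21.9 kb apart. The other members stand alone: Adora2a at chr10:75316877-75334784, Adora2b at chr11:62248984-62266453, Entpd1 at chr19:40612366-40741602 and Nt5e at chr9:88327197-88372092, all on the plus strand. The exons of P2rx7 share 119 bases with the microRNA gene Mir8115, and those of P2ry12 share 9 bases with Med12l on the opposite strand. Mir8115 lies on the strand of P2rx7, so those reads cannot be told apart by strand. For P2ry12 and Med12l the strand setting of the counting is not given in the sources used here, so reads in the shared stretch cannot be assigned to 1 gene.

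Promoter windows are shown for 4 members of the clusters on chromosomes 5 and 3, since P2rx7 and P2rx4 were both higher in MAMs while, of the members on chromosome 3, P2ry14 was lower and P2ry12 was not called. Each window is RefSeq sequence of GRCm38.p6, 300 bases long, written 5′ to 3′ on the gene's strand: P2rx7 at chr5:122643677-122643976 (plus), P2rx4 at chr5:122707294-122707593 (plus), P2ry14 at chr3:59153443-59153742 (minus) and P2ry12 at chr3:59262936-59263235 (minus). Capitals mark the motifs found on either strand. RefSeq lists several starts for P2rx7 and P2ry14, and the most upstream is shown.
P2rx7: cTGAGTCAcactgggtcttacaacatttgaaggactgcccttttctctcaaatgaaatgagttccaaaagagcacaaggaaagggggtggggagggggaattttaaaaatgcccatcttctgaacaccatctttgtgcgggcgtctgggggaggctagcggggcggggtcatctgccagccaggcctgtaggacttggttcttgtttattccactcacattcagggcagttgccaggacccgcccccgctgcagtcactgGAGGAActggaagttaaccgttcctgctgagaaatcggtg
P2rx4: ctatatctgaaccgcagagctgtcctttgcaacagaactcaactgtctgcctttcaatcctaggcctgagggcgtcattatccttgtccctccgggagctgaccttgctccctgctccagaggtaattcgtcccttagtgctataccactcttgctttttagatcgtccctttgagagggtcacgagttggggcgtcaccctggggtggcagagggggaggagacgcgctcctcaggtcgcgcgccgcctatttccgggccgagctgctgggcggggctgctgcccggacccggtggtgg
P2ry14: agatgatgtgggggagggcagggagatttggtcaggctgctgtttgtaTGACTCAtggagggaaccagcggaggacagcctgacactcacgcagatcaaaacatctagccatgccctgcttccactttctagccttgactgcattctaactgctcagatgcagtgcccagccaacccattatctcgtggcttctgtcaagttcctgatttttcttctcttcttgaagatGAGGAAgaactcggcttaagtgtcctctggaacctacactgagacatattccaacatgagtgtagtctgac
P2ry12: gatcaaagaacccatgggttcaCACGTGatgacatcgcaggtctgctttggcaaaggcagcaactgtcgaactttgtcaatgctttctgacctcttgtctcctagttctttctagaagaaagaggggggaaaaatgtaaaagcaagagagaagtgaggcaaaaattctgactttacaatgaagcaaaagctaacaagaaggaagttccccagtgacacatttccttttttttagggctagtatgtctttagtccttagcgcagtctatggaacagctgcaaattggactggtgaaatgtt
The motifs searched were the hypoxia-factor core ACGTG, the interferon-response pattern GAAANNGAA, the AP-1 pattern TGANTCA, the STAT pattern TTCNNNGAA and the PU.1 pattern GAGGAA. P2rx7 and P2ry14 each held 1 AP-1 pattern and 1 PU.1 pattern. P2ry12 held ACGTG on both strands, overlapping in the palindrome in capitals, and P2rx4 held none of the 5. Of 32851 mouse promoter windows of this length, 19.6% held ACGTG, 8.6% GAAANNGAA, 7.8% TGANTCA, 8.3% TTCNNNGAA and 28.3% GAGGAA. A match describes letters and was not tested for binding. Windows were found for 8 of the 10 members.

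Gene counts ran from 55391447 to 87523247 per MAM library and from 50746305 to 72150650 per RAM library, and no libraries held identical values. Levels are given as normalised CPM, read counts scaled with TMM factors to the library's total over the genes tested. The sorting markers followed the gates. Itgam (CD11B) was at 5848 to 6844 CPM in MAMs against 59.5 to 72.2 in RAMs, and Itgax (CD11C) at 145 to 240.0 against 880 to 1110. Summed alveolar macrophage markers were 8659 to 11434 CPM in RAMs and 252 to 547 in MAMs. Summed lymphocyte markers overlapped between groups, with 4.74 to 17.8 CPM per MAM library and 3.62 to 18.6 per RAM library. The neutrophil sum was higher in every MAM library (3.76 to 17.9 CPM) than in any RAM library (1.41 to 2.86 CPM). By the rule given below, 2 of its 5 markers were called higher in MAMs. Dendritic cell sums overlapped (MAMs 3.11 to 9.58 CPM, RAMs 1.79 to 4.24 CPM), with 1 of 4 markers called higher in MAMs. The part of neutrophil and dendritic cell RNA in the members was not tested. Summed platelet markers were higher in MAMs, at 86.8 to 268 CPM against 8.29 to 15.8 as a sum, in MAMs mostly Ppbp. Fibroblast markers reached 28.5 CPM in MAMs and 5.82 in RAMs, and endothelial markers lay at 23.6 to 82.6 and 127 to 210.2. Summed epithelial and tumour cell markers were lower in MAMs, at 9.84 to 23.6 CPM against 589 to 702 in RAMs. In RAMs this sum was mostly Krt19, at 377 to 492 CPM per library against 3.58 to 10.9 in MAM libraries. Epcam and Cdh1 were also lower in MAMs. Krt8 went the other way, at 0.615 to 3.31 CPM in MAM libraries against 0 to 0.205 in RAM libraries, and Krt18 overlapped. Lung epithelial markers were lower in MAMs as a sum, at 1.59 to 12.97 CPM against 21.9 to 42.2. In RAM libraries Krt18 was at 0 to 0.438 CPM, so the first of these sums rested there on Krt19, Cdh1 and Epcam. Whether the sorted macrophages themselves or other cells held this RNA was not tested, so the sum is no measure of epithelial cells. Both sums moved in the same direction as P2ry2, P2ry14 and Nt5e, and their part in those results was not tested. In bulk RNA, fewer cells of a type and less RNA per cell cannot be told apart.

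A gene counted as called when the groups differed by more than 2-fold and edgeR's quasi-likelihood test, adjusted by Benjamini-Hochberg over all genes tested, gave a value below 0.05. Of the 10 members, 8 were called. Of all genes, 30.3% were. In MAMs, 5 members were higher (P2rx4, P2rx7, Adora2a, Adora2b and Entpd1) where 15.3% of all genes were, and 3 were lower (P2ry2, P2ry14 and Nt5e) where 15.1% were. P2ry6 passed the adjusted p but not the fold, which made 9 members under the adjusted p against 56.2% of all genes. The groups did not overlap in CPM for 9 members, P2ry12 being the exception, against 44.9% of all genes. The median log2 fold change was 1.01 over the members and -0.02 over all genes, and the median absolute value was 1.81 against 0.56. Adora2a passed the expression filter through MAMs alone.

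**Figure D1:**
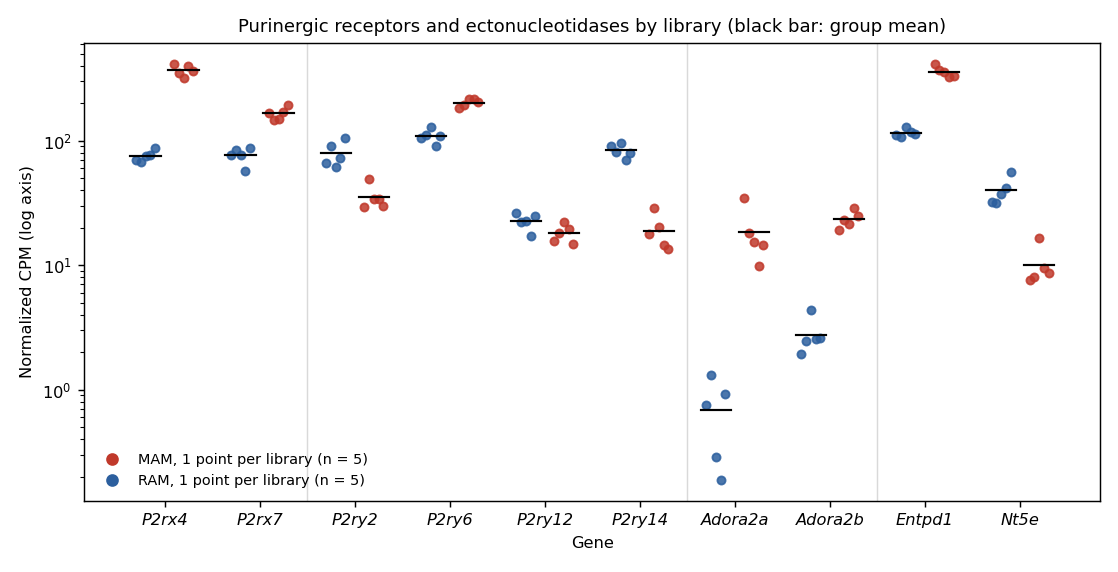
Normalized CPM (log axis) of the 10 members, 1 point per library with MAMs in red and RAMs in blue (n = 5 each) and a black bar at the group mean. The groups separate for every member but P2ry12, where 14.8 to 22.3 CPM in MAMs overlaps 17.1 to 26.4 in RAMs, and the widest separation is that of Adora2a.

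Both ATP-gated channels were higher in MAMs, and P2rx4 by more than P2rx7. P2rx4 encodes a channel that opens at low ATP and is found on lysosomes and the surface of macrophages. Its level was 418, 348, 319, 399 and 364 CPM in MAM libraries 1 to 5 and 70.5, 67.5, 75.1, 76.3 and 86.96 CPM in RAM libraries 1 to 5. The lowest MAM library was thus far above the highest RAM library. The means were 369.7 ± 39.8 and 75.3 ± 7.43 CPM (SD, n = 5 each), a 4.91-fold difference with a log2 fold change of 2.30 (SE 0.0955, edgeR adjusted p = 2.3e-11). These values rested on 14244 to 25353 counts per MAM library and 3627 to 4497 per RAM library.

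P2rx7, whose channel needs high ATP and can open a large pore, was measured at 168, 147, 149, 171 and 193 CPM in the MAM libraries. RAM libraries held 77.3, 83.6, 76.6, 57.4 and 87.9 CPM. The groups did not overlap, with the lowest MAM library at 147 CPM and the highest RAM library at 87.9 CPM. P2rx7 rose 2.17-fold, from 76.6 ± 11.7 to 166 ± 18.8 CPM (SD, n = 5 each), a log2 fold change of 1.12 (SE 0.116, edgeR adjusted p = 8.3e-07). It lay just over the fold threshold, and under upper-quartile scaling its log2 fold change of 0.95 fell below it.

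The ratio of the channels also differed between groups. Taken per length, as the deposited FPKM, P2rx4 stood 3.34 times above P2rx7 in MAMs and 1.45 times above it in RAMs. The log2 ratio of P2rx7 to P2rx4, with 0.1 FPKM added to both, was -1.74 ± 0.11 in MAMs and -0.54 ± 0.26 in RAMs (SD, n = 5 each). The difference of -1.20 gave p = 0.00794 in a two-sided exact permutation test, the smallest that 5 against 5 libraries allow. All MAM libraries lay below all RAM libraries.

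The 4 P2Y receptors did not move as 1 group: P2ry6 was higher in MAMs, P2ry2 and P2ry14 were lower, and P2ry12 was not called. P2ry6, the UDP receptor, which is known for driving phagocytosis and chemokine release in macrophages, had 185, 193, 216, 216 and 206 CPM in the MAM libraries. RAM libraries had 106, 110.4, 129, 90.5 and 109.6 CPM. Every MAM library was above every RAM library, yet the 1.86-fold difference stayed under the fold threshold. Means were 203 ± 13.9 and 109 ± 13.6 CPM (SD, n = 5 each), with a log2 fold change of 0.90 (SE 0.0929, edgeR adjusted p = 7.9e-07).

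P2ry2, its neighbour on chromosome 7, encodes the receptor for ATP and UTP that guides phagocytes to dying cells. It was found at 29.1, 49.3, 34.1, 34.0 and 29.8 CPM in MAM libraries and at 65.8, 91.2, 61.9, 72.5 and 106 CPM in RAM libraries. MAM replicate 2 stood above the other MAM libraries but below all RAM libraries. P2ry2 fell by 1.17 on the log2 scale (SE 0.175, edgeR adjusted p = 3.8e-05), from 79.5 ± 18.6 CPM in RAMs to 35.3 ± 8.19 in MAMs (SD, n = 5 each), a 2.25-fold difference. P2ry2 and P2ry6, 21.9 kb apart, thus differed between the groups in opposite directions.

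P2ry14, the receptor for UDP-glucose, was the P2Y member with the largest difference. Its MAM libraries held 17.7, 28.8, 20.4, 14.4 and 13.5 CPM, and its RAM libraries 90.7, 81.8, 95.5, 70.3 and 80.1 CPM. No MAM library reached the lowest RAM library, and MAM replicate 2 was again the highest of its group. The means of 19.0 ± 6.12 and 83.7 ± 9.79 CPM (SD, n = 5 each) were 4.41-fold apart, a log2 fold change of -2.14 (SE 0.188, edgeR adjusted p = 1.2e-07). Of 6 alveolar macrophage markers, 5 were called lower in MAMs, like P2ry14. Siglecf had 3.09 to 4.82 CPM in MAM libraries against 304 to 385 in RAM libraries, Car4 2.17 to 4.23 against 190 to 381, and Chil3 89.1 to 118 against 7541 to 10110. The gaps were smaller for Pparg, at 33.3 to 40.3 against 162 to 253, and Fabp4, at 7.76 to 16.5 against 25.2 to 46.0, and Marco overlapped, at 89.7 to 389 against 284 to 531. The part of alveolar macrophage RNA in the P2ry14 values of MAMs was not tested.

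P2ry12, the ADP receptor best known on platelets and microglia, was low in both populations. The levels were 15.7, 18.3, 22.3, 19.5 and 14.8 CPM in MAM libraries and 26.4, 22.4, 22.9, 17.1 and 24.9 CPM in RAM libraries. RAM replicate 4 fell among the MAM libraries, and the ranges overlapped. The means were 18.1 ± 2.98 and 22.7 ± 3.54 CPM (SD, n = 5 each), with a log2 fold change of -0.33 (SE 0.170, edgeR adjusted p = 0.115). The adjusted p was 0.0481 without RAM replicate 4, at -0.42, and 0.0235 under upper-quartile scaling, at -0.49, both still under the fold threshold. Of the 5 platelet markers, 2 were called higher in MAMs: Ppbp, with 70.8 to 255 CPM per MAM library and 1.60 to 3.35 per RAM library, and Itgb3, with 3.28 to 15.6 and 0.165 to 6.01. The other markers were low and overlapped between the groups, with Itga2b at 0.356 to 4.74 CPM in MAM libraries and 1.13 to 6.38 in RAM libraries, Gp1ba at 0.244 to 2.52 and 1.07 to 4.55, and Gp9 at or below 2.85 in every library. The part of platelet RNA in the P2ry12 values was not tested.

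**Figure D2:**
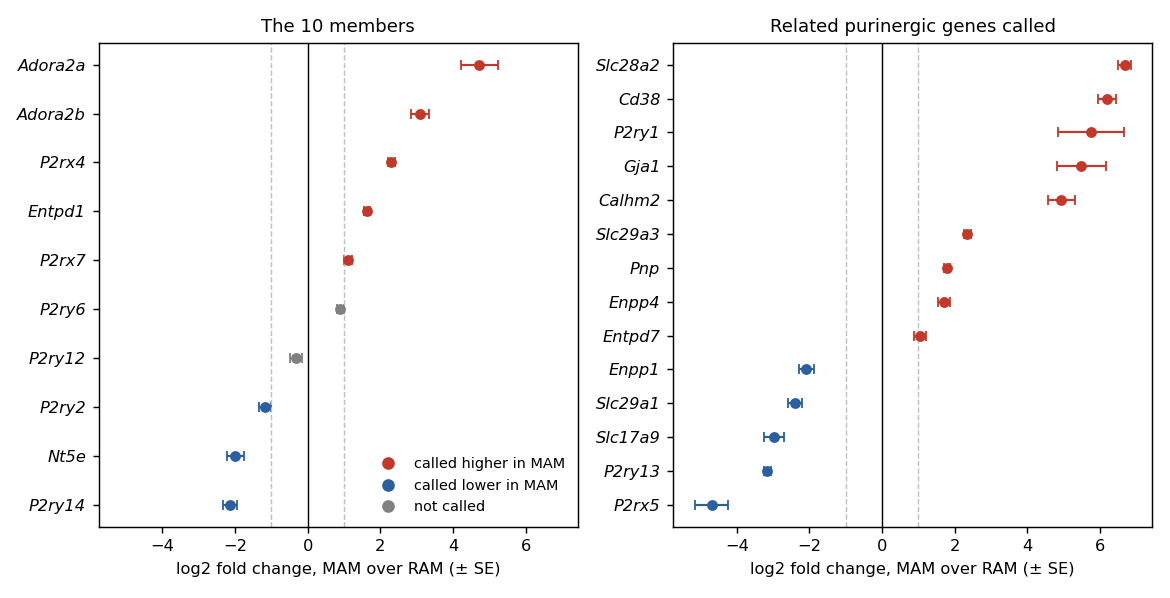
Log2 fold change of MAMs over RAMs (x axis, ± SE from edgeR) for the 10 members (left) and for the 14 related genes called (right), with dashed lines at the fold threshold of 2. Among the members Adora2a lies farthest to the right at 4.73 and P2ry14 farthest to the left at -2.14, while P2ry6 and P2ry12, in grey, were not called.

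Both adenosine receptors were higher in MAMs and low in RAMs. Adora2a encodes the receptor that responds to low adenosine. It had 34.7, 18.2, 15.4, 9.77 and 14.6 CPM in MAM libraries, and 0.753, 1.31, 0.290, 0.188 and 0.917 CPM in RAM libraries. The MAM libraries varied more than for the other members, with replicate 1 the highest, but the lowest was still well above all RAM libraries. The means were 18.5 ± 9.55 and 0.691 ± 0.460 CPM (SD, n = 5 each), a 26.5-fold difference. The log2 fold change of 4.73 (SE 0.517, edgeR adjusted p = 1.5e-06) rested on 540 to 1709 counts per MAM library and 9 to 87 per RAM library. It was 4.37 without MAM replicate 1 and 2.87 by limma on log2(FPKM + 1), where the added 1 is larger than the RAM level.

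Adora2b, which encodes the receptor that needs higher adenosine, was steadier. MAM libraries held 19.4, 22.9, 21.3, 28.6 and 25.0 CPM, and RAM libraries 1.92, 2.45, 4.33, 2.57 and 2.60 CPM. RAM replicate 3 was the highest of its group, and the groups stayed far apart. Adora2b rose 8.45-fold, from 2.77 ± 0.912 to 23.4 ± 3.55 CPM (SD, n = 5 each), with a log2 fold change of 3.08 (SE 0.246, edgeR adjusted p = 4.2e-08). Counts were 951 to 1738 per MAM library and 112 to 209 per RAM library.

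The balance of the 2 adenosine receptors was less certain than the rise of each. Mean FPKM of Adora2b was 1.62 times that of Adora2a in MAMs and 6.43 times in RAMs. The log2 ratio per library was 0.79 ± 0.81 in MAMs and 2.39 ± 1.14 in RAMs (SD, n = 5 each), a difference of -1.60 (two-sided exact permutation p = 0.0238). The groups overlapped, and MAM replicate 1, at -0.46, was the only library with more Adora2a than Adora2b. With 1 FPKM added in place of 0.1 the difference was -0.31 (exact permutation p = 0.452), so no difference in this ratio was established at the RAM levels of Adora2a. Endothelial cells also carry adenosine receptors, and of their 4 markers 2 were called higher and 1 lower in MAMs. Kdr had 12.1 to 54.3 CPM in MAM libraries and 0.210 to 1.92 in RAM libraries, Cdh5 had 4.82 to 10.8 and 0.994 to 5.14, and Vwf had 6.36 to 25.6 and 125 to 207. Cldn5 had 0 counts in every MAM library. Their part in the adenosine receptor values was not tested.

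The ectonucleotidases moved in opposite directions. Entpd1 (CD39) was at 412, 368, 357, 328 and 333 CPM in MAM libraries against 111, 107, 129, 117 and 113 CPM in RAM libraries. The libraries of each group lay close together and the groups far apart. Entpd1 rose 3.12-fold, from 115 ± 8.44 to 359.7 ± 33.5 CPM (SD, n = 5 each), with a log2 fold change of 1.64 (SE 0.0829, edgeR adjusted p = 2.1e-10).

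Nt5e (CD73) was found at 7.60, 8.00, 16.5, 9.48 and 8.72 CPM in MAM libraries and at 32.4, 31.8, 37.5, 41.6 and 56.2 CPM in RAM libraries. MAM replicate 3 was high for its group and RAM replicate 5 for its own, without overlap. Nt5e fell by 1.99 on the log2 scale (SE 0.235, edgeR adjusted p = 3.3e-06), from 39.9 ± 9.95 to 10.1 ± 3.66 CPM (SD, n = 5 each), a 3.97-fold difference. Fibroblasts carry CD73, and summed fibroblast markers were highest in MAM replicate 3, at 28.5 CPM. MAM replicate 1, with the next highest sum of 22.6 CPM, had the lowest Nt5e of the group. The difference in Nt5e was -2.24 on the log2 scale without MAM replicate 3, and the part of fibroblast RNA was not tested.

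The order of the ectoenzymes within each library showed the largest of the ratio differences measured. Entpd1 stood 33.7 times above Nt5e in mean FPKM in MAMs and 2.49 times in RAMs. The log2 ratio of Nt5e to Entpd1 was -5.06 ± 0.42 in MAMs and -1.34 ± 0.34 in RAMs (SD, n = 5 each), a difference of -3.72 or 13.1-fold (two-sided exact permutation p = 0.00794, the smallest possible). No library of either group lay within the range of the other. The values concern transcripts, and no enzyme activity was measured.

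**Figure D3:**
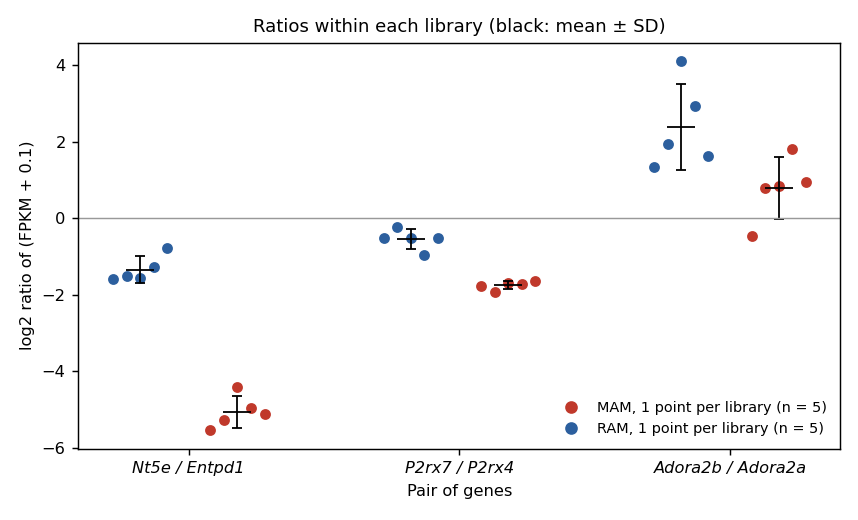
Log2 ratio of FPKM (with 0.1 added) for the pairs Adora2b to Adora2a, P2rx7 to P2rx4 and Nt5e to Entpd1, 1 point per library with MAMs in red and RAMs in blue (n = 5 each) and the group mean as a bar. The ratio of Nt5e to Entpd1 separates the groups most widely, at -5.06 and -1.34, while the ratio of the adenosine receptors overlaps.

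The order of the 10 genes by level per length was not the same in MAMs and RAMs. In MAMs the deposited FPKM was 142 ± 16.3 for P2rx4 and 125 ± 10.2 for P2ry6, followed by 80.0 ± 7.52 for Entpd1 and 42.7 ± 5.57 for P2rx7 (SD, n = 5). The ranges of P2rx4 and P2ry6 overlapped, with P2rx4 above P2ry6 in 4 of 5 libraries. Adora2b (13.99 ± 1.97), P2ry2 (13.4 ± 3.71), P2ry14 (9.83 ± 3.07), Adora2a (8.65 ± 4.29) and P2ry12 (5.04 ± 1.09) formed a run in which each overlapped the next. Nt5e was the lowest, at 2.37 ± 0.748 FPKM, and below P2ry12 in all 5 libraries.

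RAMs had another order, headed by P2ry6 at 68.5 ± 8.75 FPKM. P2ry14 (43.0 ± 5.67), P2ry2 (30.0 ± 6.67), P2rx4 (27.0 ± 2.89) and Entpd1 (24.6 ± 2.38) came next, each overlapping its neighbour. P2rx7 (18.6 ± 3.14), Nt5e (9.87 ± 2.59), P2ry12 (6.19 ± 1.12), Adora2b (1.56 ± 0.457) and Adora2a (0.243 ± 0.157) followed without overlap (SD, n = 5). P2ry6 was thus among the 2 highest members in both populations, while P2ry14 ranked 2 in RAMs and 7 in MAMs.

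**Figure D4:**
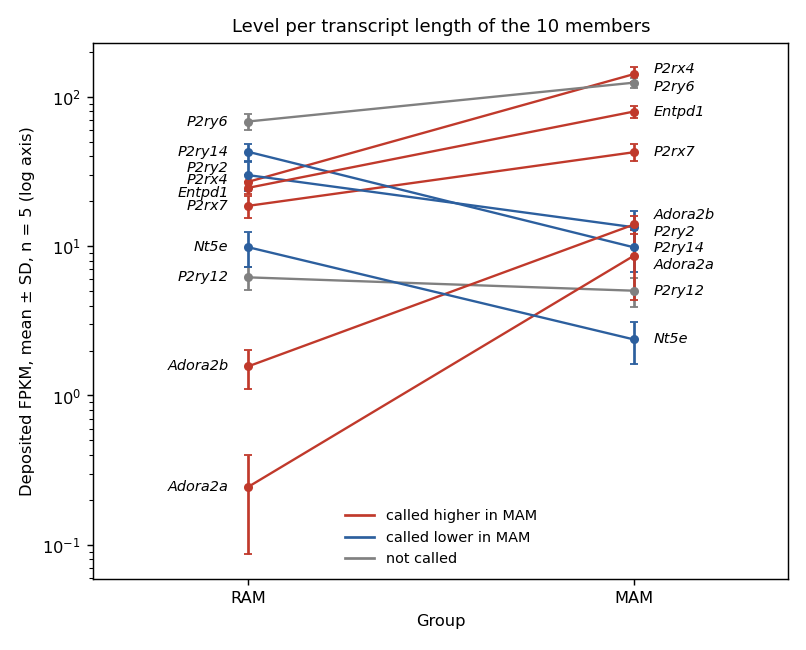
Deposited FPKM (log axis) of the 10 members in MAMs and in RAMs, as mean ± SD (n = 5 libraries each) joined by a line for each gene. P2rx4 moves from 27.0 to 142 FPKM and to the top in MAMs, whereas P2ry14 and Nt5e drop, from 43.0 to 9.83 and from 9.87 to 2.37.

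Of the 43 related genes, 22 reached the filter's mean FPKM of 1 in either group and were tested. Of these, 14 were called, 9 higher and 5 lower in MAMs. Of all genes, 30.3% were called, 15.3% higher and 15.1% lower. The groups did not overlap for 15 of the 22, against 44.9% of all genes. The median log2 fold change was 0.29, against -0.02 over all genes. Of the 22 genes, 8 passed the filter through 1 group alone, so this count is a description only. Among the genes called, these were P2rx5, P2ry1, Cd38, Gja1, Slc17a9 and Calhm2. Their fold changes and p-values below are likewise a description, since the group where they are high let them be tested. Among the other P2 receptors, ADP receptors differed in opposite directions. P2ry13, which lies between P2ry14 and P2ry12, had 128 to 170.2 CPM in RAM libraries and 14.8 to 16.7 in MAM libraries, a log2 fold change of -3.15 (SE 0.103, edgeR adjusted p = 1.5e-12). In this run of neighbours, P2ry14 and P2ry13 were therefore lower in MAMs while P2ry12, the next gene, was not called. P2ry1 had 2.99 to 8.88 CPM in MAM libraries, and its RAM libraries held 1 to 24 counts. Its log2 fold change was 5.75 (SE 0.903, edgeR adjusted p = 6.2e-05) and 7.97 without RAM replicate 4, the library with 24 counts. By limma the P2ry1 value was 1.31 on log2(FPKM + 1) and 3.67 on log2(FPKM + 0.1), so its size depends on the value added. P2rx5, the only other P2X channel tested, was lower in MAMs, with RAM libraries at 11.1 to 19.7 CPM and MAM libraries at 0.199 to 1.10. Its log2 fold change was -4.69 (SE 0.461, edgeR adjusted p = 4.4e-07), on 11 to 63 counts per MAM library, and -2.47 by limma on log2(FPKM + 1).

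Enzymes and carriers that act on nucleotides and nucleosides also differed by gene. Enpp1, which cleaves ATP directly to AMP, was 4.24-fold lower in MAMs, at 40.6 ± 14.4 against 172 ± 21.6 CPM (edgeR adjusted p = 8.1e-07). Enpp4 rose to 31.5 ± 1.80 from 9.66 ± 1.59 CPM (edgeR adjusted p = 2.1e-07), and the intracellular Entpd7 to 65.9 ± 12.8 from 31.9 ± 5.72 (SD, n = 5 each). Entpd7 lay at the fold threshold, with a log2 fold change of 1.05, and lost its call without MAM replicate 3 (0.98), RAM replicate 2 (0.9994) or RAM replicate 5 (0.96), under upper-quartile scaling (0.88) and by limma on log2(FPKM + 1) (0.90). Pnp, the phosphorylase that breaks down inosine, rose to 374 ± 37.7 from 109 ± 6.75 CPM (edgeR adjusted p = 8.9e-11).

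The nucleoside carriers differed in both directions. Slc28a2, a sodium-driven carrier that imports purine nucleosides, had 647, 581, 443, 434 and 431 CPM in MAM libraries and 3.94, 5.47, 5.26, 5.76 and 4.41 CPM in RAM libraries. The RAM mean was 0.980% of the MAM mean, a log2 fold change of 6.67 (SE 0.168, edgeR adjusted p = 8.7e-14). Among genes above 1000 CPM in MAMs, the lowest RAM level was 0.912% of the MAM level. Slc28a2, with a MAM mean of 507 CPM, was not among those genes, and what set its RAM level was not tested. Slc29a3, a carrier of lysosomes, rose from 88.7 ± 7.24 to 449.7 ± 50.2 CPM (edgeR adjusted p = 1.2e-11). Slc29a1, which lets adenosine pass the plasma membrane in both directions, fell by 2.40 on the log2 scale, from 91.1 ± 5.35 to 17.2 ± 5.67 CPM (SD, n = 5 each, edgeR adjusted p = 2.3e-08).

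Cd38, the ectoenzyme that breaks down NAD, had 83.4 to 127 CPM in MAM libraries and 0.959 to 2.21 in RAM libraries, a log2 fold change of 6.19 (SE 0.239, edgeR adjusted p = 9.2e-12). Its chromosomal neighbour and relative Bst1 passed the adjusted p at 0.93 on the log2 scale, under the fold threshold. Of the genes tied to ATP release, Calhm2 (4.93, edgeR adjusted p = 2.1e-08) and the connexin gene Gja1 (5.48, edgeR adjusted p = 5.0e-06, on 2 to 48 counts per RAM library) were higher in MAMs. By limma on log2(FPKM + 1) the values were 3.62 for Calhm2 and 2.36 for Gja1. Slc17a9, which loads ATP into vesicles, fell by 2.97 on the log2 scale (edgeR adjusted p = 3.2e-07). Gja1 is also a fibroblast gene and was highest in MAM replicate 3, at 28.3 CPM against 7.06 to 18.9 in the other MAM libraries. Summed fibroblast markers were also highest there, but MAM replicate 1, with the next highest sum, had the lowest Gja1, and MAM replicate 2, with the lowest sum of 3.02 CPM, had 18.9. The part of fibroblast RNA in Gja1 was not tested. The pannexin gene Panx1 did not pass (-0.45, edgeR adjusted p = 0.241). Adora1, Alpl and Slc28a3 had 0 counts in every library, which allows up to 3 counts in each.

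The genes whose pattern over the 10 libraries was most like that of the members with the most extreme fold changes were named for reference. For Adora2a these were Dnajb4 (r = 0.991), Hes1 (0.991) and Slc41a2 (0.989), and for P2ry14 Sobp (0.995), Rab14 (0.992) and Mtl5 (0.989). The values are Pearson correlations of log2 CPM over 10 libraries that fall into 2 groups, so they include the difference between groups, and they are given as a description.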

How the data were processed

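RNA of sorted MAMs and RAMs was made into libraries with the Ovation RNA-Seq System V2 and sequenced as paired reads. The authors aligned the reads to GRCm38 (mm10) and counted uniquely mapped reads per gene, and they deposited these counts, unnormalized, as 1 table per library. A second deposited table gives FPKM, scaled by transcript length and mapped fragments. The submitters' processing notes name TopHat2 2.0.13, HTSeq 0.6.1, Cufflinks 2.2.1 and DESeq2 1.6.3. The strand setting of the counting is not given in the sources used here. Cufflinks assigns fragments to transcripts while the counts drop ambiguous reads, so a gene's FPKM and counts can differ.

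Groups were taken from the sample labels. Lines that name no gene held 54.6 to 58.3% of all counts in MAM libraries and 62.2 to 64.1% in RAM libraries and were left out. TMM factors were 0.897 to 0.943 in MAMs and 1.07 to 1.10 in RAMs. Genes whose mean FPKM reached 1 in either group and that had at least 1 count were tested, 11571 in all, with edgeR's quasi-likelihood test (edgeR 4.0.16, R 4.3.3) of MAMs against RAMs, TMM normalization and Benjamini-Hochberg adjustment over all of them. CPM are scaled with TMM factors to each library's total over the tested genes, and log2 CPM used a prior count of 2. Called means past both of the study's thresholds, 2-fold and an adjusted p below 0.05. Ratios within a library used log2(FPKM + 0.1) and two-sided exact permutation tests, 3 in all, without adjustment. A count of 0 allows up to 3 counts, for counting error only, since the reads carry no molecular identifiers.

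The alternatives were RLE and upper-quartile scaling, DESeq2 1.42.0, no filter, edgeR's own filter, limma 3.58.1 on log2(FPKM + 1) and on log2(FPKM + 0.1), the replicate number as a block, and each library left out in turn. The tests were checked on simulated data with known answers. The members, the related list and the marker lists were chosen with earlier results of these data known. All members, every related gene called, the 3 genes most correlated with the members of highest and lowest fold change, markers and overlapping neighbours were named. Bst1, Panx1 and the genes at 0 counts were added after their values were seen, as were Ada, Adora3, Dpp4, Entpd4 and Entpd8 in the closing observations. Positions came from GENCODE M21 and promoter windows from RefSeq, both on GRCm38. Python 3.11.15 with matplotlib 3.10.9 drew the figures.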

Additional observations from a re-analysis of the deposited data

Results flagged for a closer look

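Of 26 groups of 5 libraries examined for 1 library standing apart (a gap to its nearest neighbour of over 0.71 of the range), 3 were found, where chance gives about 1 in 20 groups. P2ry2 was highest in MAM replicate 2, at 49.3 CPM, with the other MAM libraries at 29.1 to 34.1. Its log2 fold change without that library was -1.32. The same library was the highest MAM library for P2ry14, at 28.8 CPM, and for the alveolar macrophage markers Siglecf, at 4.82 CPM against 3.09 to 4.25, and Chil3, at 118 against 89.1 to 110.3. It was not the highest for Marco, at 319.7 CPM against 389 in MAM replicate 1, nor for Car4, Fabp4 and Pparg.

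Adora2b was highest in RAM replicate 3, at 4.33 CPM against 1.92 to 2.60 in the other RAM libraries, and its log2 fold change without it was 3.29. Nt5e was highest in MAM replicate 3, at 16.5 CPM against 7.60 to 9.48, and its log2 fold change without it was -2.24. That library also held the most fibroblast marker RNA of the MAM libraries, 28.5 CPM, while MAM replicate 1 held 22.6 CPM with the lowest Nt5e, 7.60 CPM. None of these libraries changed a call of the member concerned, and the causes were not tested.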

How the results depend on the processing

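Of 180 values of the members under 18 alternatives, 178 kept their direction and their side of the adjusted p threshold, none reversed, and 2, both of P2ry12, passed it. The number of members called was 8 under 17 alternatives and 7 under upper-quartile scaling, which moved the median of all genes by -0.16 and P2rx7 to 0.95. Related genes called ranged from 13 to 16 and all genes called from 2909, by limma on log2(FPKM + 1), to 4672, without a filter. The difference in the log2 ratio of Adora2b to Adora2a fell to -0.31 (exact permutation p = 0.452) with 1 FPKM added, and its values with a library left out ran from -1.86 to -1.17. The other ratios ranged from -1.30 to -1.12 (P2rx7 to P2rx4) and from -3.88 to -3.57 (Nt5e to Entpd1) with a library left out. Same-numbered libraries did not deviate together (r from -0.0366 to 0.0294, 0 of 5 pairs over 0.1). No pairing by number was seen, though this check cannot show which libraries were handled together. With the replicate block, 8 members, 14 related genes and 3526 genes in all were called. For the ratios, an exact sign-flip test over these pairs gave differences of -1.60 (Adora2b to Adora2a), -1.20 (P2rx7 to P2rx4) and -3.72 (Nt5e to Entpd1), each with p = 0.0625, the smallest that 5 pairs allow, so it says nothing about stability. Depth limits P2ry1, Gja1 and Adora2a in RAMs, with 1 to 24, 2 to 48 and 9 to 87 counts per library, and P2rx5 in MAMs, with 11 to 63. Counts were also low for Calhm2 and Cd38 in RAMs, at 17 to 105 and 45 to 147, and for Slc17a9 in MAMs, at 55 to 146. By limma on log2(FPKM + 1) the log2 fold change was 4.36 for Cd38 and -1.75 for Slc17a9.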

Other observations

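Ada, the enzyme that turns adenosine into inosine, was the gene whose counts and FPKM differed most among the 32 listed genes tested. By counts it did not pass, at 9.08 ± 2.33 CPM in MAMs and 6.07 ± 1.93 in RAMs (SD, n = 5 each), a log2 fold change of 0.58 (edgeR adjusted p = 0.0997), and the groups overlapped. By the deposited FPKM it was at 2.76 to 8.26 in MAMs and 0.232 to 1.14 in RAMs, without overlap, a log2 ratio of means of 2.83 (limma on log2(FPKM + 0.1), adjusted p = 0.000169). The other 31 genes differed by at most 0.42 on the log2 scale between both measures. Adora3, the receptor closest to this limit together with Adora2a, did not pass by counts (-0.43, edgeR adjusted p = 0.463) or by FPKM (limma adjusted p = 0.821). The cause of the gap for Ada was not tested, and its direction by counts and by FPKM was the same.

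Of the 21 related genes left out by the filter, Dpp4 and Entpd8 were called when no filter was used. Dpp4, whose protein CD26 binds adenosine deaminase on the cell surface, was at 4.51 CPM in MAMs and 0.569 in RAMs (higher in MAMs, edgeR adjusted p = 0.000718). Entpd8 was at 0.00737 CPM in MAMs and 0.595 in RAMs (edgeR adjusted p = 0.0172), with at most 1 count in a MAM library and 147 in a RAM library. Entpd4 failed the filter by its deposited FPKM, at 0 in every MAM library and at most 0.0223 in a RAM library. Its counts were 96 to 523 per MAM library and 123 to 321 per RAM library. Without the filter Entpd4 was not called (log2 fold change 0.59, edgeR adjusted p = 0.258).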
